A study of Homo sapiens with 12 samples.

Results

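The proteasome subunit genes were the protein-coding genes of the table whose symbol starts with PSMA, PSMB, PSMC, PSMD, PSME or PSMF followed by a number. The rule found 46 of 57905 genes under 44 names, because PSMA1 and PSMA2 are each listed under 2 Ensembl identifiers. RNA was sequenced from MDA-MB-231, an established human triple-negative breast cancer cell line, in 4 groups of 3 libraries. All 4 groups are listed with DMSO at 0.01% and water at 0.05%. Vehicle cells received these alone, and the other groups also received 1 µM SFN, 0.5 µM ZA or both (SFN+ZA), each for 48 h before RNA was taken. The labels spell out neither abbreviation; SFN commonly stands for sulforaphane, a plant isothiocyanate, and ZA for zoledronic acid, a bisphosphonate used against bone loss. All groups share this single cell line, and nothing in the labels says that the 3 dishes of a group were separate cultures, so the spread between libraries may be technical.

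The proteasome is the barrel-shaped protease that degrades ubiquitin-tagged proteins in the cytosol and nucleus. Its core particle stacks outer rings of alpha subunits (PSMA genes), which gate the channel, on inner rings of beta subunits (PSMB genes), of which PSMB5, PSMB6 and PSMB7 carry the chymotrypsin-like, caspase-like and trypsin-like active sites. Interferon-induced PSMB8, PSMB9 and PSMB10 replace these in the immunoproteasome, which shapes peptides for MHC class I display. The regulatory cap has a base of AAA ATPases (PSMC genes) and scaffold and ubiquitin-receptor subunits, and a lid that includes the deubiquitinase PSMD14. PSME genes encode alternative activators of the core, and PSMF1 an inhibitor. When proteasome activity is short, the transcription factor NFE2L1 (NRF1) raises the transcription of many subunit genes together, and NFE2L2 (NRF2), the factor that isothiocyanates activate, has been linked to some of them.

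Total counts ran from 15.3 to 25.4 M (mega) per library, and the members took 84301 to 137350 of them. SFN 2 and vehicle 2 had the most negative GC trend. Over all genes tested, the Spearman correlation between a gene's deviation from its median over libraries and its transcript's GC content was -0.80 in SFN 2 and -0.60 in vehicle 2. In the other 10 libraries it ran from -0.47 to 0.64, and SFN+ZA 1 at 0.64 and ZA 3 at 0.63 exceeded vehicle 2 in size. It was negative in all 3 SFN libraries (-0.41, -0.80 and -0.43) and positive in all 3 SFN+ZA libraries (0.64, 0.23 and 0.37). Every comparison below is given from all 12 libraries and again from 10 libraries (without SFN 2 and vehicle 2) with a GC offset. Of 5 genes that mark this line, VIM had 931 to 2198 counts per 1e6 counts (CPM), AXL 1062 to 1352, and CD44 and CAV1 were likewise high, whereas SPARC stayed between 0.51 and 1.30 CPM. Of 7 luminal markers, PGR had no count, ESR1 and FOXA1 had 2 counts each over all libraries and CDH1 had 0.711 to 2.93 CPM, whereas ERBB2 had 27.5 to 127, EPCAM 15.1 to 42.7 and GATA3 11.5 to 20.2 CPM. The blood markers summed to at most 0.60 CPM per library, with CD3E and HBB at 0. The endothelial and fibroblast markers VWF, COL1A1, COL3A1 and DCN summed to 8.31 to 14.6 CPM in vehicle, 1.98 to 15.1 in SFN, 12.4 to 15.3 in ZA and 16.1 to 17.6 in SFN+ZA. This sum came mostly from COL1A1 and was highest in SFN+ZA; its part in the results was not tested.

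Of the 46 genes, 42 passed the filter on low counts (filterByExpr) and were tested among 15142 genes. PSMA8, the testis form of an alpha subunit, and PSMA1 under ENSG00000256206 had no count in any library. PSMB11, the thymus form of a catalytic beta subunit, had 3 counts in all. PSMA2 under ENSG00000256646 had 5 counts in all. The other PSMA1 and PSMA2 entries, ENSG00000129084 and ENSG00000106588, are the ones described from here on.

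Levels are compared between genes in FPKM, the length- and depth-scaled fragment counts that the authors computed, as the mean ± SD over 12 libraries. The tested subunit genes were abundant: their median of the mean FPKM was 29.5, against 4.83 over all genes tested, and 38 of 42 lay above the latter. The core particle held both ends of the range. In the alpha ring, PSMA7 was the most abundant member of all at 204 ± 28.5 FPKM, followed in this ring by PSMA3 at 43.5 ± 19.02 and PSMA4 at 34.6 ± 17.04. At the other end, PSMA1 had 11.3 ± 8.16, PSMA2 0.943 ± 0.314 and PSMA6 0.199 ± 0.0801 FPKM, although each alpha ring contains these subunits in equal number. In the beta ring, the structural subunits PSMB4 at 107 ± 10.8, PSMB3 at 99.9 ± 12.9, PSMB1 at 94.6 ± 37.1 and PSMB2 at 46.6 ± 4.11 FPKM lay within the range of the catalytic subunits or above it.

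**Figure D1:**
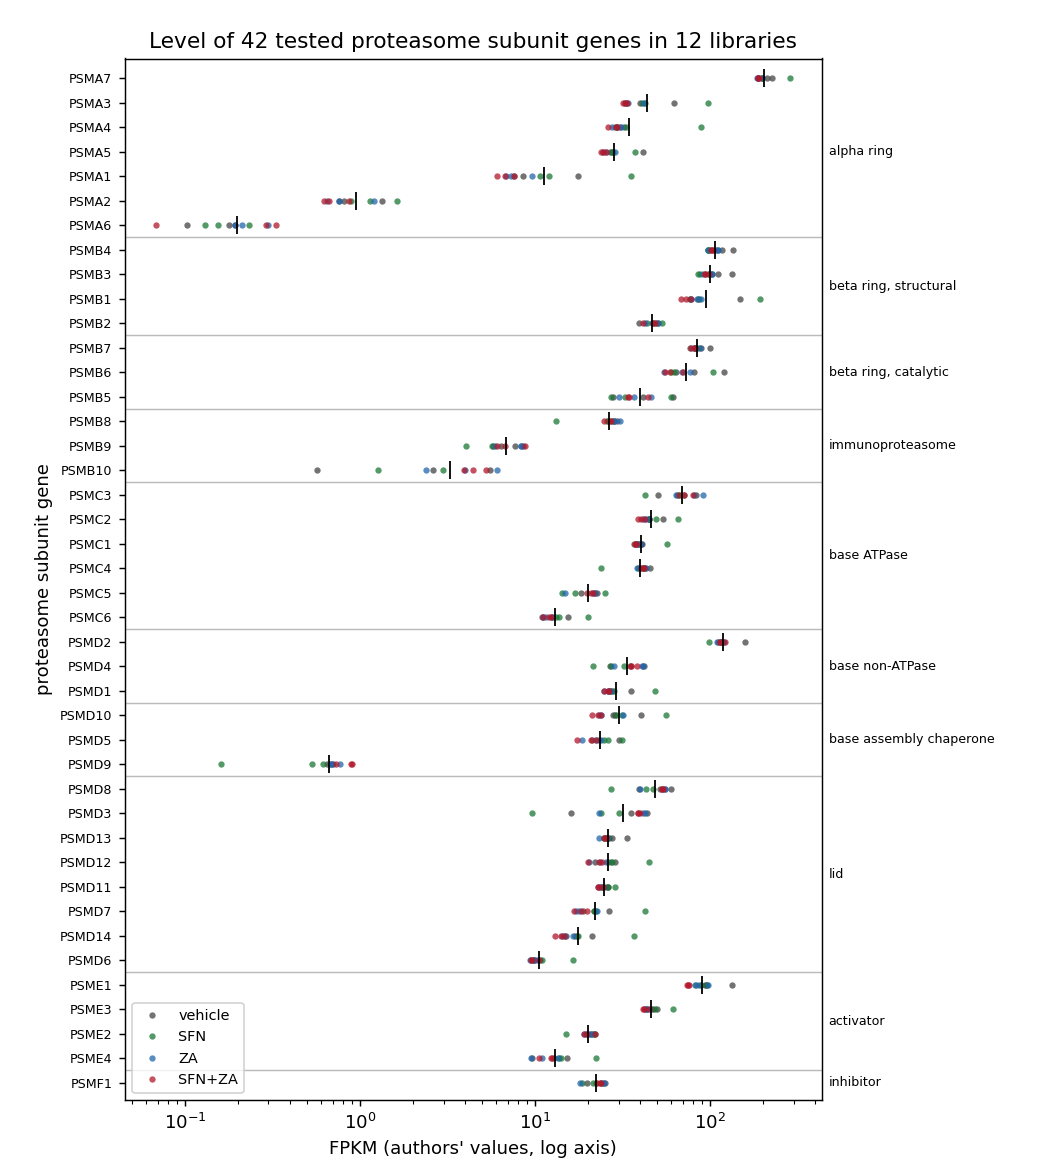
FPKM (log axis) of the 42 tested subunit genes in each of the 12 libraries, coloured by group, with a black tick at the mean over libraries and genes ordered by role. PSMA7, PSMD2 and PSMB4 have the highest means, PSMA6, PSMD9 and PSMA2 the lowest, and single SFN or vehicle points lie far from the rest for PSMA4, PSMD3 and PSMD9; the value of 0 of PSMB10 in SFN 2 cannot be drawn on a log axis.

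In the regulatory cap, the base ATPases ran from 13.04 ± 2.60 FPKM for PSMC6 to 69.2 ± 13.6 for PSMC3, with a median of 40.03. Among the other base subunits, the scaffold PSMD2 was the second most abundant member at 118 ± 14.1 FPKM, the scaffold PSMD1 had 29.01 ± 6.71 and the ubiquitin receptor PSMD4 had 33.7 ± 6.56. The 8 lid genes had a median of 25.4 FPKM, from 10.5 ± 1.96 for PSMD6 to 48.3 ± 9.32 for PSMD8. Chaperones that assemble the base were represented by PSMD10 at 29.99 ± 9.75, PSMD5 at 23.5 ± 4.14 and PSMD9 at 0.667 ± 0.191 FPKM. Of the activators, PSME1 had 90.3 ± 16.3 and its partner in the PA28 alpha-beta ring, PSME2, had 20.2 ± 1.95 FPKM. PSME3, the nuclear PA28 gamma, had 46.1 ± 5.42, and PSME4, the large PA200 activator, had 13.1 ± 3.41. The inhibitor PSMF1 (PI31) stood at 22.3 ± 2.39 FPKM.

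Several of these levels belong to genes that share their position with another gene, and the counting rule for shared positions and the strand setting are not given in the sources used here. PSMA6 had 273 counts over all 12 libraries and is overlapped on the same strand over 38842 bases by KIAA0391, which had 103 counts. PSMD9 had 1253 counts and lies on the same strand as the protein-coding entry RP11-87C12.2, which overlaps it by 29489 bases and had no count. PSMA2 had 1080 counts and shares 15314 bases with its other entry. PSMA1 shares 26562 bases with its other entry and 6245 with COPB1, a coat-protein gene with 94845 counts on the same strand. PSMD2 lies wholly within EIF2B5, which had 18303 counts on the same strand, PSMB9 overlaps TAP1 on the opposite strand by 8770 bases, and PSMB8 and PSMB9 overlap each other by 568. How many reads these genes gained or lost in this way was not tested, so their levels are uncertain.

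Each constitutive catalytic subunit was more abundant in FPKM than its immunoproteasome replacement in every library. PSMB5 had 39.7 ± 11.4 FPKM against 26.3 ± 4.42 for its replacement PSMB8, PSMB6 73.02 ± 20.1 against 6.84 ± 1.47 for PSMB9, and PSMB7 83.9 ± 6.20 against 3.25 ± 1.97 for PSMB10. Together the immunoproteasome subunits took (in %, replicates 1, 2 and 3 in order) 16.8, 11.8 and 17.2 in vehicle, 16.9, 6.46 and 16.4 in SFN, 18.02, 17.3 and 17.98 in ZA and 17.3, 16.8 and 18.3 in SFN+ZA of the FPKM summed over these 6 genes. SFN 2 and vehicle 2 were the lowest, and the other 10 libraries lay between 16.4 and 18.3%. The ZA libraries lay just above all vehicle and SFN libraries, and SFN+ZA overlapped the other 3 groups. By pairs, PSMB8 took 40.8, 32.4 and 48.2 in vehicle, 48.7, 18.01 and 45.6 in SFN, 48.2, 43.6 and 39.9 in ZA and 38.1, 42.4 and 43.6 in SFN+ZA (in %) of the sum of PSMB8 and PSMB5. The other replacements were minor: PSMB9 took 3.74 to 11.1% of its pair and PSMB10 0 to 6.92%.

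**Figure D2:**
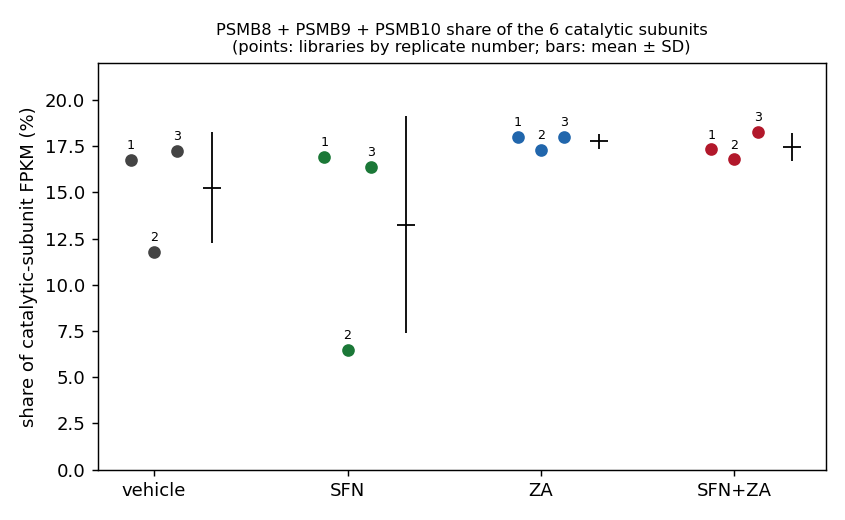
Share (%) of PSMB8, PSMB9 and PSMB10 in the FPKM summed over the 6 catalytic subunit genes, 1 point per library labelled by replicate number, with mean ± SD beside each group (n = 3). SFN 2 at 6.46% and vehicle 2 at 11.8% lie below the other 10 libraries.

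Promoters are shown for PSME1, PSMB3 and PSMB9, which include the members with the lowest p in SFN and in SFN+ZA against vehicle. RefSeq windows of 300 bases on GRCh38.p14, from 250 before to 50 after the start of the gene, were found for 39 of the 44 names (47 windows). Capitals mark the letters TGACNNNGC, the core of the antioxidant response element through which NRF2 and NRF1 bind, and GAAANNGAA, the core of the interferon-stimulated response element, each read on both strands.
PSME1: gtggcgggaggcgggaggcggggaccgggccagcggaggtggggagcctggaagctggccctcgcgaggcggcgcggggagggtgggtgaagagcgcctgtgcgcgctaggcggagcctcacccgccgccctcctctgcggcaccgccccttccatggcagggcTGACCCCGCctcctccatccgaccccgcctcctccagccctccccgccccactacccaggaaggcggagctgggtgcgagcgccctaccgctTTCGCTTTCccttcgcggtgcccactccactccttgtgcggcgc
PSMB3: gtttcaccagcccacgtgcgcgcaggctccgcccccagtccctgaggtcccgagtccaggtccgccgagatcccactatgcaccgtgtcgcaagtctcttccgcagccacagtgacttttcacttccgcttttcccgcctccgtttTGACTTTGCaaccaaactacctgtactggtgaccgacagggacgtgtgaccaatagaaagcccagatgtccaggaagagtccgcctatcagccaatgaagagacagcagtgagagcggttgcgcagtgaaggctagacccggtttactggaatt
PSMB9: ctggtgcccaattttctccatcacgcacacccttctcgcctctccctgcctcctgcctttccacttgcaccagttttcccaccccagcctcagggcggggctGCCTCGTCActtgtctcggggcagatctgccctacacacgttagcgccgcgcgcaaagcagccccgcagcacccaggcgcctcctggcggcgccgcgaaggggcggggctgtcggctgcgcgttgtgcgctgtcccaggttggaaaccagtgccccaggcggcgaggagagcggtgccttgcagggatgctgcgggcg

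All of these windows lie on the plus strand, at chr14:24135944-24136243 for PSME1, chr17:38752491-38752790 for PSMB3 and chr6:32853942-32854241 for PSMB9. In PSME1, TGACCCCGC starts 86 bases before the gene start, and TTCGCTTTC, the interferon core read on the minus strand, starts at base 7 of the transcript. In PSMB3, TGACTTTGC starts 104 bases before the start, and in PSMB9, GCCTCGTCA, the antioxidant core on the minus strand, starts 148 bases before it. TGACNNNGC was found in 13 of the 47 windows of members (13 of the 39 names) and in 13.3% of all 35116 windows of the same length. The 13 were PSMA4, PSMB3, PSMB9, PSMC4, PSMC5, PSMD1, PSMD3, PSMD5, PSMD9, PSMD12, PSME1, PSME2 and PSME4. All promoters shown above are thus among them. PSMB4 and PSMD10, also among the 3 lowest p in SFN and in SFN+ZA against vehicle respectively, had a window without this core. GAAANNGAA was found in 7 of the 47 windows, from 7 names (PSMA4, PSMB4, PSMB8, PSMB10, PSMC2, PSME1 and PSME2), and in 8.11% of all windows, so that PSME1, PSME2 and PSMA4 held both. CCAAT was found in 19 of the 47 windows (19 names) and 34.6% of all windows. TTCNNNGAA, the gamma-activated site, was found in 8 of the 47 windows (8 names) and 7.66% of all windows. A match describes the letters of a window and is not a shown binding site.

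Deviations of the members in single libraries differed with base composition. Over the 41 tested members with a GC value, the Spearman correlation between GC content and the deviation of a library from the gene's mean was -0.66 in SFN 2, against 0.73 in vehicle 1 and 0.61 in ZA 2. In vehicle 2 it was -0.29, smaller in size than in SFN 3 at -0.35. After the GC smooth the correlation lay between -0.27 and 0.19 in all 12 libraries. GC-poor members were high in SFN 2: relative to the mean of SFN 1 and SFN 3, CPM was 2.77-fold for PSMA4 (42.1% GC), 2.29-fold for PSMB1 (40.7%), 2.28-fold for PSMA3 (36.7%) and 2.03-fold for PSMD14 (31.96%). GC-rich members were low there, at 0.347-fold for PSMD3 (52.7%) and 0.480-fold for PSMB8 (53.8%). Some members left this order: PSMB6 (54.5%) and PSMA7 (55.5%) were 1.64-fold and 1.44-fold in SFN 2. The median coefficient of variation of the tested members was 18.97% over 12 libraries and 10.5% over 10, against 26.7% and 14.6% for all genes tested. Of the 42 tested members, 38 had a mean FPKM above the median of all genes tested. The variation of genes of like level was not computed. Across the 861 pairs of members, the median Pearson correlation of log2 CPM over 12 libraries was 0.17, with 56.6% of pairs above 0; this is a description, since pairs share libraries and base composition.

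**Figure D3:**
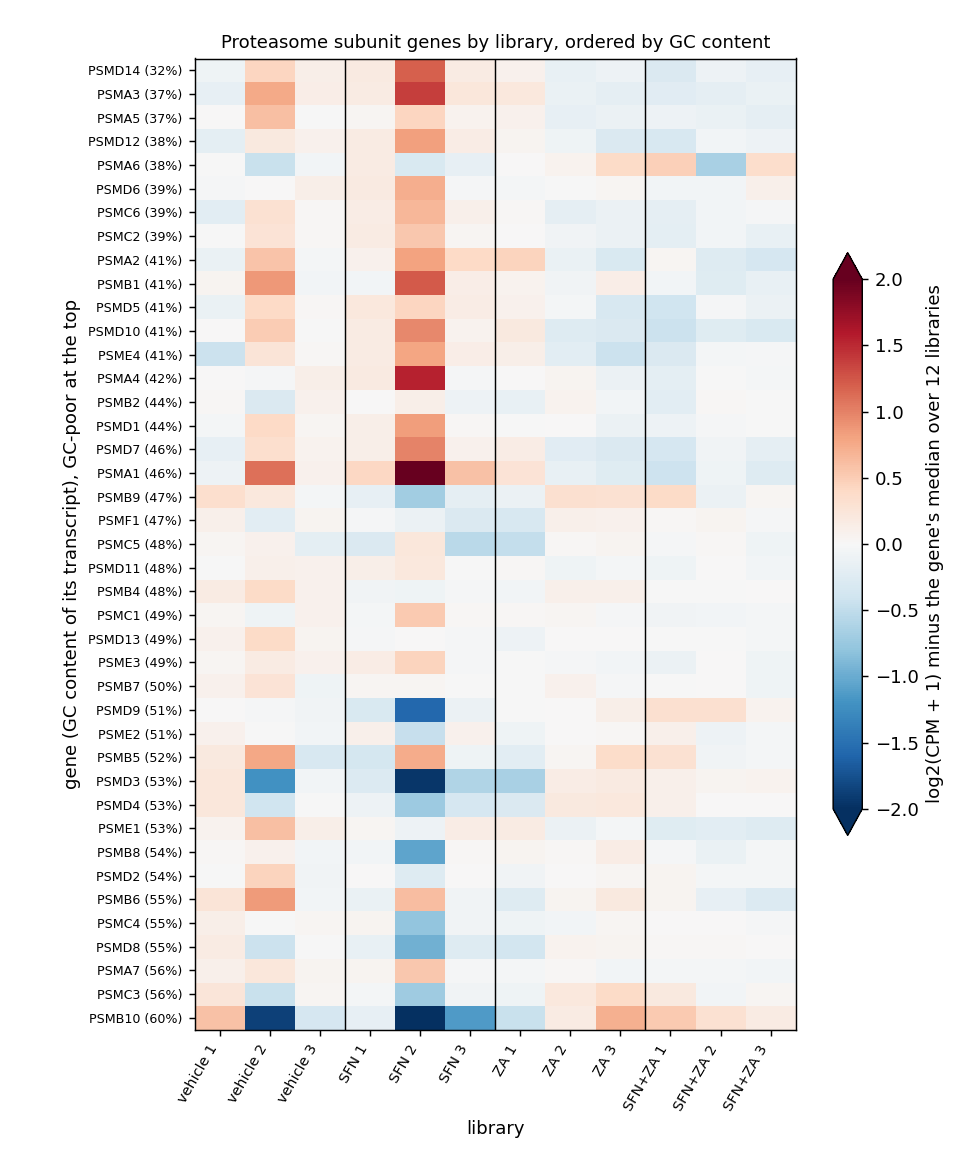
Deviation of log2(CPM + 1) from each gene's median over 12 libraries (colour, red above and blue below), for 41 tested members ordered by the GC content of their transcript, GC-poor at the top. SFN 2 is red for most GC-poor and blue for most GC-rich members and vehicle 2 shows a weaker form, while the 3 SFN+ZA libraries are mostly pale.

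As a whole, the members took slightly fewer counts in the treated groups that contained ZA. Their share of all counts was 0.552, 0.679 and 0.555% in vehicle, 0.551, 0.671 and 0.543% in SFN, 0.528, 0.542 and 0.541% in ZA and 0.528, 0.529 and 0.526% in SFN+ZA. In this share, all 6 libraries with ZA lay below all 3 vehicle libraries and below all 3 SFN libraries. SFN 3 and ZA 2 were nearest to each other. With vehicle 2 and SFN 2 left aside, the whole range was 0.526 to 0.555%. The separation depended on the scale. In CPM summed over the members, ZA 2 (5449) and ZA 3 (5454) lay above SFN 3 (5390), though all 6 libraries with ZA lay below vehicle. In summed FPKM, ZA 2 (1732) and ZA 3 (1754) lay above vehicle 3 (1716), SFN 1 (1697) and SFN 3 (1653). Mitochondrial transcripts took 0.775 to 3.27% of the counts in vehicle, 1.60 to 4.32% in SFN, 4.26 to 4.76% in ZA and 4.69 to 5.30% in SFN+ZA, and their part in the share of the members was not tested.

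SFN against vehicle addresses SFN alone. No member was called in edgeR's quasi-likelihood test at an adjusted p under 0.05 (0 of 42, with 0% of 15142 genes called), while 3 members and 753 genes had an unadjusted p under 0.05. DESeq2's Wald test and the authors' deposited table each called 0 genes, and so 0 members. The members were split evenly, 21 above and 21 below 0, with a median log2 fold change of 0.0034 against -0.0094 over all genes tested. A reference chosen after seeing the data was the 3099 genes tested whose mean log2 CPM was at least that of the members' lower quartile. Of these, 44.5% lay below 0, with a median of 0.06. Without SFN 2, 10 members lay above and 32 below 0, with a median of -0.09. With 10 libraries and the GC offset, 16 members lay above and 26 below, with a median of -0.06. There the 3099 genes of like or higher level had 48.2% below 0 and a median of 0.0053. The 3 members with the lowest p were all core subunits and all lower in SFN. CPM values below are listed in the order of replicates 1, 2 and 3.

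The structural beta subunit PSMB3 had 132, 161 and 124 in vehicle, 119, 101 and 107 in SFN, 112, 121 and 122 in ZA and 117, 113 and 112 in SFN+ZA CPM. All SFN values lay below all vehicle values, and ZA and SFN+ZA did as well. Its log2 fold change in SFN was -0.35 ± 0.13 (SE), from 139 ± 19.8 to 109 ± 8.82 CPM (SD, n = 3), with an edgeR adjusted p of 0.728. The immunoproteasome subunit PSMB9 had 26.2, 24.03 and 20.1 in vehicle, 18.2, 12.4 and 18.2 in SFN, 18.8, 26.1 and 25.8 in ZA and 27.1, 18.97 and 21.1 in SFN+ZA CPM. SFN was below vehicle without overlap, ZA 1 and SFN+ZA 2 lay between the SFN and the vehicle values, and the other ZA and SFN+ZA values lay in or just above the vehicle range. Its log2 fold change in SFN was -0.53 ± 0.22, edgeR adjusted p 0.728. PSMB4, another structural beta subunit, had 253, 296 and 240.0 in vehicle, 216, 212 and 224 in SFN, 217, 243 and 244 in ZA and 225, 224 and 227 in SFN+ZA CPM. Its SFN libraries lay below vehicle, as did SFN+ZA, whereas ZA overlapped vehicle; the log2 fold change in SFN was -0.27 ± 0.12, edgeR adjusted p 0.728.

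Together with PSMD13 and PSMD9, these made 5 members whose CPM was lower in SFN without overlap, where 3.48% of genes tested were, and no member was higher without overlap, where 4.40% were. PSMD9 had 6.19, 6.06 and 5.85 in vehicle, 4.85, 1.42 and 5.59 in SFN, 6.19, 6.19 and 6.78 in ZA and 8.02, 8.01 and 6.55 in SFN+ZA CPM, with SFN 2 far below all others and the 3 SFN+ZA libraries above all vehicle libraries. Without vehicle 2 and SFN 2, 14 members were lower and 14 higher without overlap, where 23% and 24.6% of all genes were. By role, the alpha ring had a median of 0.34 and the immunoproteasome of -0.53 in the fit of 12 libraries, with median GC contents of 40.7% and 53.8%. In the fit of 10 libraries with the GC offset, these medians were -0.0046 and -0.36. That fit called 0 members and 0.0326% of 15353 genes, and gave PSMB3 -0.18 ± 0.07 (PSMB3 has no GC value and received no offset), PSMB9 -0.36 ± 0.22 and PSMB4 -0.15 ± 0.07.

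The catalytic beta subunits and the deubiquitinase of the lid differed in how far vehicle 2 and SFN 2 stood from the other libraries. PSMB5 had 73.3, 109.9 and 50.7 in vehicle, 49.8, 107 and 60.1 in SFN, 55.2, 65.4 and 82.4 in ZA and 78.7, 60.9 and 62.1 in SFN+ZA CPM, highest in vehicle 2 and SFN 2. PSMB6 had 116, 174 and 92.8 in vehicle, 87.9, 148 and 92.1 in SFN, 80.8, 99.9 and 111 in ZA and 101, 85.7 and 79.8 in SFN+ZA CPM, again highest in vehicle 2 and SFN 2. PSMB7 had 192, 219.5 and 170.0 in vehicle, 185, 185 and 180.4 in SFN, 179.6, 192 and 178 in ZA and 179, 181 and 170.1 in SFN+ZA CPM, a narrow range in which all groups overlapped. The catalytic PSMB8 had 57.3, 59.96 and 53.7 in vehicle, 53.7, 26.6 and 57.3 in SFN, 58.4, 57.4 and 62.1 in ZA and 55.03, 50.9 and 54.6 in SFN+ZA CPM, so that SFN 2 alone was low and SFN 1 and SFN 3 lay within the vehicle range. PSMB10 had 10.3, 1.07 and 4.95 in vehicle, 5.75, 0 and 2.43 in SFN, 4.58, 7.46 and 11.4 in ZA and 9.82, 8.35 and 7.47 in SFN+ZA CPM, with 0 counts in SFN 2, where 3 counts would correspond to 0.170 CPM. In this library PSMB10, the most GC-rich member at 60.1%, was not detectable at this depth, and its groups otherwise overlapped except SFN+ZA above SFN. PSMD14, the lid deubiquitinase and the most GC-poor member, had 117, 167 and 134 in vehicle, 141, 285 and 139 in SFN, 132, 111 and 115 in ZA and 101, 116 and 110.3 in SFN+ZA CPM, with SFN 2 far above all others and SFN+ZA below vehicle.

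ZA against vehicle addresses ZA alone. Again no member was called (0 of 42, edgeR, with 0% of genes called). An unadjusted p under 0.05 was found for 0 members and 173 genes. DESeq2 and the authors' deposited table each called 0 genes, and so 0 members. Of the 42 members, 31 lay below 0, with a median log2 fold change of -0.14; over all genes tested 49.3% lay below 0 and the median was 0.0041. The share below 0 was 63.2% and the median -0.06 for the 3099 genes tested whose mean log2 CPM was at least that of the members' lower quartile, a reference chosen after seeing the data. Leaving out vehicle 2 alone brought the members' median to -0.06.

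The lid subunit PSMD13 had the lowest p in ZA, with 132, 162 and 129 in vehicle, 122, 125 and 122 in SFN, 115, 124 and 125 in ZA and 123, 124 and 121 in SFN+ZA CPM. All values of the 3 treated groups lay below all vehicle values, and the log2 fold change in ZA was -0.22 ± 0.12, edgeR adjusted p 0.980. PSMB3 followed at -0.23 ± 0.13 and PSME1 at -0.27 ± 0.16. In all, 4 members were lower in ZA without overlap (PSMA7, PSMB3, PSMD13 and PSME3), where 3.05% of genes were, and 1 was higher, PSMA6, where 4.48% of genes were. PSMA7, the most abundant member, had 372, 403 and 358 in vehicle, 359, 503 and 340.4 in SFN, 335, 352 and 335 in ZA and 337, 338 and 334 in SFN+ZA CPM, in which ZA and SFN+ZA lay below every vehicle library. PSMA6, the least abundant tested, had 1.27, 0.674 and 1.19 in vehicle, 1.55, 0.850 and 1.03 in SFN, 1.30, 1.39 and 1.97 in ZA and 2.17, 0.454 and 1.91 in SFN+ZA CPM, which rests on few counts and varied widely within SFN+ZA. In the fit of 10 libraries with the GC offset, 0 members and 0.124% of genes were called, 29 of 42 members lay below 0 and the median was -0.05. There the 3099 genes of like or higher level had 63.2% below 0 and a median of -0.02. PSMD13 was then at -0.09 ± 0.06, PSMB3 at -0.12 ± 0.07 and PSME1 at -0.07 ± 0.11.

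SFN+ZA against vehicle showed the most one-sided set of signs, with small sizes. No member was called (0 of 42, edgeR, with 0% of genes called), and 1 member and 744 genes had an unadjusted p under 0.05. DESeq2's Wald test called 21 genes and 44 were called in the authors' deposited table, with 0 members in either. Of the 42 members, 34 lay below 0, with a median log2 fold change of -0.14 and a median SE of 0.21 per member; all genes tested had 48.9% below 0 and a median of 0.011, and the 3099 genes of like or higher level had 62.1% below 0 and a median of -0.08. All 4 structural beta subunits, all 3 constitutive catalytic subunits and all 4 activators were among the 34. Above 0 lay PSMA6, PSMB10, PSMC3, PSMD3, PSMD4, PSMD8, PSMD9 and PSMF1.

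PSME1, the alpha subunit of the PA28 activator, had the lowest p. Its CPM was 168, 244 and 174 in vehicle, 164, 149.8 and 177 in SFN, 181, 148 and 157 in ZA and 135, 138 and 134 in SFN+ZA. The 3 SFN+ZA values lay close together and below all other 9 libraries, which held for no other member and for 1.87% of genes tested. The log2 fold change was -0.53 ± 0.16, from 195 ± 42.1 to 136 ± 2.30 CPM, edgeR adjusted p 0.861, and -0.34 without vehicle 2, its highest library. PSME2, which forms a ring with PSME1, had 79.6, 74.4 and 71.99 in vehicle, 80.4, 54.1 and 79.7 in SFN, 70.9, 75.5 and 75.8 in ZA and 80.2, 69.6 and 72.7 in SFN+ZA CPM, without such a difference, and overlapped vehicle in SFN+ZA. The ratio of PSME1 to PSME2 in FPKM was 4.25, 6.58 and 4.85 in vehicle, 4.10, 5.56 and 4.47 in SFN, 5.12, 3.95 and 4.15 in ZA and 3.38, 3.99 and 3.70 in SFN+ZA. SFN+ZA had the lowest ratios, with SFN+ZA 2 at 3.99 just above ZA 2 at 3.95.

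PSMB3 followed with a log2 fold change of -0.28 ± 0.13 and an edgeR adjusted p of 0.861. PSMD10 (gankyrin), the base chaperone also known to bind the retinoblastoma protein, had 70.9, 101 and 70.6 in vehicle, 79.8, 138 and 74.2 in SFN, 81.1, 59.3 and 57.8 in ZA and 52.4, 59.9 and 57.3 in SFN+ZA CPM. SFN+ZA lay below vehicle and SFN and overlapped ZA, and the log2 fold change was -0.52 ± 0.25, edgeR adjusted p 0.861. In all, 10 members were lower in SFN+ZA than in vehicle without overlap (PSMA5, PSMA7, PSMB3, PSMB4, PSMC2, PSMD10, PSMD13, PSMD14, PSME1 and PSME3), where 9.63% of genes were, and 1 was higher, PSMD9, where 11.5% were. Without vehicle 2 the lower members numbered 14, where 14.4% of genes were. The fit of 10 libraries with the GC offset called 3.02% of genes and 0 members. In it 34 members again lay below 0, with a median of -0.08 against -0.0037 over all genes tested. The 3099 genes of like or higher level had 64.4% below 0 and a median of -0.04 there. The values were -0.36 ± 0.11 (adjusted p 0.104) for PSME1, -0.28 ± 0.08 (0.0878) for PSMD10 and -0.18 ± 0.07 (0.160) for PSMB3. PSMB6, the caspase-like subunit, had -0.27 ± 0.08 (0.0918) there and -0.52 ± 0.26 in the fit of 12 libraries.

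**Figure D4:**
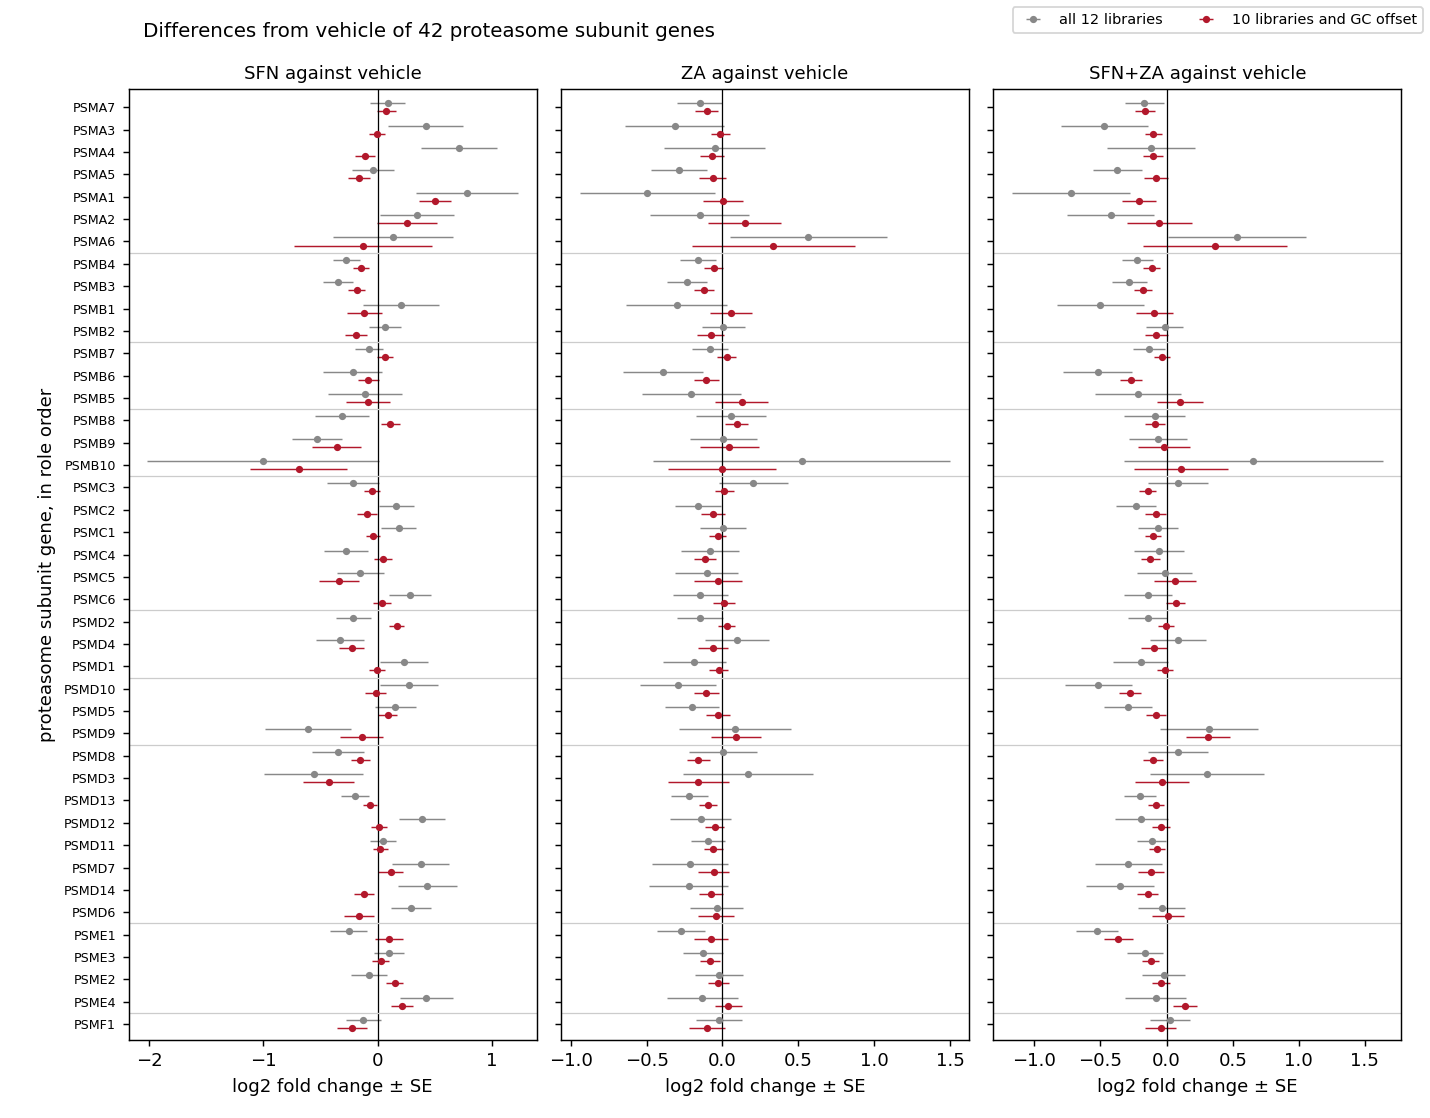
Log2 fold change ± SE of each of the 42 tested members against vehicle in SFN, ZA and SFN+ZA, from edgeR on all 12 libraries (grey) and on 10 libraries with a GC offset (red), genes in role order, with a separate x axis per panel. In SFN+ZA 34 of 42 members lie left of 0 in both fits, and in SFN the alpha ring lies mostly right of 0 in grey and near 0 in red.

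Of the remaining activators, PSME3 had lower CPM in ZA and in SFN+ZA than in vehicle without overlap, by a small margin, and PSME4 overlapped vehicle. PSME3 had 227, 249 and 236 in vehicle, 245, 301 and 217 in SFN, 221, 218 and 214 in ZA and 205, 223 and 209 in SFN+ZA CPM, so that vehicle 1 at 227 and SFN+ZA 2 at 223 were nearest to each other. PSME4 had 98.5, 159 and 135 in vehicle, 149, 230.0 and 146 in SFN, 144, 114 and 98.5 in ZA and 109, 129 and 132 in SFN+ZA CPM, highest in SFN 2, with all groups overlapping vehicle. PSMF1, the inhibitor, had 123, 98.5 and 119.7 in vehicle, 113, 105 and 93.9 in SFN, 91.8, 122 and 121 in ZA and 116, 119 and 113 in SFN+ZA CPM, with the lowest value in ZA 1. The ubiquitin receptor PSMD4 had 127, 82.2 and 108 in vehicle, 102, 65.4 and 85.7 in SFN, 88.7, 125 and 127 in ZA and 117, 109.5 and 109.8 in SFN+ZA CPM, lowest in SFN 2 and next in vehicle 2.

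**Figure D5:**
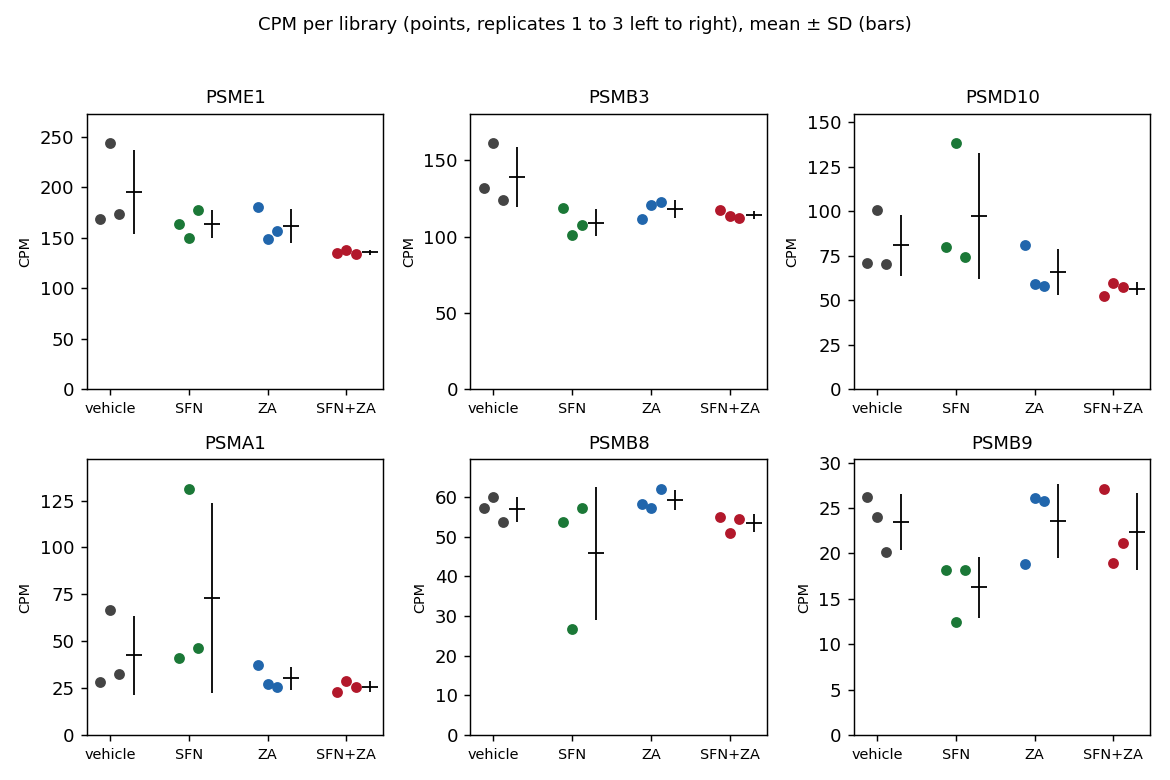
CPM of PSME1, PSMB3, PSMD10, PSMA1, PSMB8 and PSMB9 in each library, replicates 1 to 3 from left to right in each group, with mean ± SD (n = 3); every axis starts at 0. PSME1 is lowest in the 3 SFN+ZA libraries, and SFN 2 is the extreme library for PSMD10, PSMA1, PSMB8 and PSMB9.

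SFN+ZA against SFN had the most members at a low p of the 6 comparisons in the fit of 12 libraries. No member was called (0 of 42, edgeR, with 0% of genes called), but 12 members had an unadjusted p under 0.05, as did 3312 genes; DESeq2's Wald test called 6 genes and 10 were called in the authors' deposited table, with 0 members in either. The median of the members was -0.20 with 26 of 42 below 0 (0.045 over all genes tested). For the 3099 genes of like or higher level the median was -0.17, with 59.5% below 0. CPM was lower in SFN+ZA without overlap for 17 members, where 23.7% of genes were, and higher for 7, where 23.4% were. Without SFN 2, 17 members were lower and 9 higher without overlap, where 27.1% and 26.6% of genes were. An unadjusted p under 0.05 was found for 5 members and 1298 of 15464 genes when SFN 2 alone was left out, for 4 members and 1060 of 15480 genes without SFN+ZA 1, and for 13 members and 3016 of 15353 genes with 10 libraries and the GC offset. The members' median was -0.07 without SFN 2 and -0.02 with 10 libraries and the GC offset, where the 3099 genes of like or higher level had -0.04. The lowest p belonged to the alpha subunit PSMA1, with 28.3, 66.5 and 32.4 in vehicle, 41.2, 131 and 46.3 in SFN, 37.2, 27.4 and 25.7 in ZA and 22.8, 28.9 and 25.4 in SFN+ZA CPM. Every SFN library lay above every SFN+ZA library, and SFN 2 and then vehicle 2 were the highest of all. Its log2 fold change was -1.50 ± 0.45, edgeR adjusted p 0.223. PSMD10 and PSMD14 followed at -0.79 ± 0.25 and -0.79 ± 0.26.

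In the fit of 10 libraries with the GC offset, PSMA1 was the 1 member called, where 0.365% of genes were: it fell by 0.71 ± 0.13 on the log2 scale in SFN+ZA relative to SFN, edgeR adjusted p 0.0346. Only this setting called it; over the 21 alternatives its adjusted p ran from 0.035 to 0.54, with the highest when SFN 2 alone was left out (log2 fold change -0.78). Against vehicle, PSMA1 in SFN was at 0.50 ± 0.14 in that fit (adjusted p 0.242) and 0.78 ± 0.45 in the fit of 12 libraries. PSME1 came next, at -0.46 ± 0.11 (adjusted p 0.0873), and PSMD10 was at -0.26 ± 0.08. PSMD14, in contrast, was at -0.03 ± 0.08. Since PSMA1 lies on the same strand as COPB1 and another PSMA1 entry, its counts are uncertain as described above.

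SFN+ZA and ZA differed little. No member was called (0 of 42, edgeR, with 0% of genes called), and 0 members and 159 genes had an unadjusted p under 0.05; DESeq2 called 0 genes, and the authors' deposited table called 11 genes and 0 members. The median was -0.04 with 29 of 42 members below 0, against -0.03 and 60.5% for the 3099 genes of like or higher level. CPM was lower in SFN+ZA without overlap for 3 members, PSMB8, PSMC1 and PSME1, where 5.77% of genes were. None was higher, where 6.99% were. PSME1 again had the lowest p, at -0.25 ± 0.16 (edgeR adjusted p 1.00), before PSMD10 at -0.23 ± 0.25 and PSMA2 at -0.27 ± 0.33. PSMA2 had 4.06, 7.24 and 4.42 in vehicle, 4.91, 8.73 and 6.32 in SFN, 6.60, 4.09 and 3.49 in ZA and 4.70, 3.64 and 3.40 in SFN+ZA CPM, with all groups overlapping except SFN above SFN+ZA. With 10 libraries and the GC offset, 0 members and 0.117% of genes were called, and PSME1 was at -0.29 ± 0.10, adjusted p 0.294.

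The interaction, the log2 effect of SFN+ZA less those of SFN and ZA added together, was called for no member in either fit (0 of 42, edgeR, with 0% of genes called in both), and 0 members and 257 genes had an unadjusted p under 0.05 with 12 libraries. The lowest p belonged to PSMA4 at -0.78 ± 0.47, PSMD9 at 0.85 ± 0.53 and PSMB3 at 0.30 ± 0.19, all with an edgeR adjusted p of 0.901. PSMA4 had 117, 115 and 126 in vehicle, 132, 341 and 114 in SFN, 117, 121 and 107 in ZA and 101, 116 and 113 in SFN+ZA CPM, where SFN 2 far exceeded all other libraries. With 10 libraries and the GC offset, PSMA4 was at 0.08 ± 0.11, with the sign turned, and PSMA1 had the lowest p at -0.71 ± 0.18 (adjusted p 0.574) against -1.01 ± 0.63 with 12 libraries.

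Of 40 further genes of the pathway, 39 were tested: assembly factors, the NFE2L1 route with the p97 unfoldase, ubiquitin and shuttle genes, and interferon-induced partners of the immunoproteasome. None was called in the fit of 12 libraries in any of the 6 comparisons. UBB, which encodes a chain of ubiquitin repeats, had the lowest p in SFN+ZA against vehicle, with 413, 679.7 and 402 in vehicle, 390.3, 394 and 385 in SFN, 382, 366 and 374 in ZA and 330.0, 336 and 336 in SFN+ZA CPM. As with PSME1, its SFN+ZA libraries lay below all other 9, and vehicle 2 was the highest. Its log2 fold change was -0.58 ± 0.18 (edgeR adjusted p 0.861) with 12 libraries, and with 10 libraries and the GC offset it fell by 0.30 ± 0.06 on the log2 scale (adjusted p 0.0175), the 1 of 39 called there, where 3.02% of all genes were. B2M, the light chain of MHC class I, followed at -0.24 ± 0.07 (0.0584) in that fit. NFE2L2 had 152, 209.9 and 194 in vehicle, 201, 363 and 207 in SFN, 223, 151 and 138 in ZA and 139.8, 165 and 162 in SFN+ZA CPM, highest in SFN 2. NFE2L1 had 303, 159 and 235 in vehicle, 227, 102 and 202 in SFN, 205, 287 and 304 in ZA and 298, 274 and 265 in SFN+ZA CPM, lowest in SFN 2 and next in vehicle 2. Both factors overlapped vehicle in every treated group.

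Among the genes most like PSMB8 in log2 CPM over the 12 libraries were FAM134C, PHF13, NEU1 and RPL29, with Pearson r from 0.986 to 0.995, and from 0.744 to 0.970 over the 10 libraries without vehicle 2 and SFN 2. Those most like PSMB9 were PRPF6, MARCH9, HLA-E, PRDX2 and UNG, with r from 0.952 to 0.977, and from 0.914 to 0.953 over the 10 libraries. After the GC smooth, r lay between 0.716 and 0.918 for these 4 genes of PSMB8 and between -0.587 and 0.649 for the PSMB9 list. These are descriptions over libraries that share depth and base composition.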

How the data were processed

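Total RNA from MDA-MB-231 cells was sequenced in 12 libraries, grouped by treatment label. The authors deposited raw read counts and FPKM values per gene; reads were aligned with HISAT2 to GRCh37/hg19, per the submitters' processing notes. Which tool counted the reads, and with which strand setting, is not given in the sources used here. Log2 fold changes and p-values of group pairs are also held in the authors' deposited table.

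The main test on counts was edgeR 4.0.16 under R 4.3.3 (filterByExpr, TMM, robust quasi-likelihood F test, two-sided, 1 mean per group over 12 libraries), with Benjamini-Hochberg adjustment over 15142 genes. The SE was derived from the log2 fold change and its F statistic. CPM uses TMM-scaled totals. The GC offset is a lowess curve (span 0.3) of log2 deviation on the GC content of the longest GENCODE 29 transcript, held by 41 of 42 tested members; with it, 10 libraries gave 15353 genes. Alternatives were DESeq2 1.42.0 (Wald test and size factors), no low-count filter, the compared groups alone, a replicate block and leaving out each library. The edgeR fit and the GC offset were tested on simulated data.

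The labels do not say whether same-numbered libraries belong together. Correlations of same-numbered deviations from the group means were 0.59, 0.63 and 0.26 for vehicle and SFN. They ran from -0.50 to 0.32 for the other pairs of groups. Replicate 2 holds both SFN 2 and vehicle 2, which share a strongly negative GC trend, so these values cannot show a pairing. Members and gene lists were chosen with earlier results of these data known. Genes given in every library were members called, the 3 lowest p per comparison, representatives by role, and the highest and lowest FPKM. Values of other members, such as those with a high or low ratio in SFN 2 or without overlap between groups, and of NFE2L1 and NFE2L2, were chosen after they were seen. The limit of 3 counts given for a count of 0 covers counting error only. Per-sample columns without a sample numbered 0. Results of some genes on the lists are not reported here.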

Additional observations from a re-analysis of the deposited data

How the results depend on the processing

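The count of members called was 0 in all 6 comparisons and stayed 0 under every alternative except SFN+ZA against SFN with 10 libraries and the GC offset, where it was 1 (PSMA1). With that setting the members' median log2 fold change was -0.0468 in ZA against vehicle and -0.0186 in SFN+ZA against SFN; leaving out 1 library each gave medians from -0.1739 to -0.0563 for ZA against vehicle, the smallest in size without vehicle 2. For SFN+ZA against ZA, the SD of the library medians within a group, pooled over both groups, was 0.0034. The members' median in this comparison was -0.0501 with 10 libraries, -0.0338 with 10 libraries and the GC offset and -0.0350 with the GC offset. It was -0.0468 with the compared groups alone and -0.0362 with DESeq2 size factors and with the DESeq2 Wald test. It was -0.0520 without the low-count filter and -0.0520 with the replicate block, and ran from -0.0674 to -0.0297 when 1 library was left out. Log2 fold changes that turned were 2: PSMA4 in the interaction was 0.0766 with 10 libraries and the GC offset, and PSMA2 in SFN+ZA against ZA ran from -0.4488 to 0.0266, the latter without ZA 1. The cause was not tested. Of 466 refitted values for 22 gene and comparison pairs, the other 463 kept their direction and stayed above the adjusted p threshold, and 1 (PSMA1) passed it.

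The replicate block called 0 members in every comparison, and its median for SFN against vehicle was 0.0070 (0.0064 on the SFN and vehicle libraries alone, an alternative chosen after seeing the data). The immunoproteasome share is the same by construction when CPM per kilobase replaces FPKM, so that this alternative tests nothing. With 3 libraries a group, the median SE was 0.21 per member on the log2 scale in SFN+ZA against vehicle, and PSMB10, PSMA6 and PSMA1 had the largest SEs. Differences below their SE were not detectable, and differences well above it were not called either, such as PSME1 at -0.53 in that comparison. The SE is therefore not a limit of detection.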
